A study of Mus musculus with 12 samples.

Results

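Inmt, Ces1d, Amy1 and Lgals4 are 4 of the 27179 genes measured in each diet's table of a mouse heart RNA-seq study. They were chosen by name because their normalized counts were strongly lower after pressure overload, so the difference between operated and sham hearts below describes how they were chosen and is given without a test. Hearts came from C57Bl/6J mice, 12 weeks old, with no transgene or deletion named in the labels. Feeding of the assigned diet, either fat-free with 0 kcal% of fat or high-fat with 60 kcal%, began 4 days ahead of the operation and went on until hearts were collected 1 week later. Surgery was transverse aortic constriction (TAC), in which the aortic arch is narrowed and the left ventricle pumps against a higher pressure, or a sham operation. The 4 groups were therefore fat-free sham (n = 3), fat-free TAC (n = 3), high-fat sham (n = 2 of 3 labelled, since replicate 1 was not analysed here) and high-fat TAC (n = 3). No mice on an ordinary diet were part of the groups, so every comparison is within a diet at an extreme of fat content.

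The libraries held 25906622 to 39699027 normalized counts and 16541 to 18348 genes above 0. Transcripts of the mitochondrial genome took 26.2% to 32.7% of the counts in sham and 18.1% to 25.3% in TAC libraries. The labelled tissue was in keeping with its markers: the summed level of 10 heart muscle genes was 1034479 to 2385962 normalized counts in every library. These genes, which include Myh6 and Actc1, are not all particular to the ventricle. The libraries did not hold the same share of other tissue. Counts of Myl7, the atrial myosin light chain, were 9915, 274 and 8426 in the 3 sham hearts fed without fat, against 1758, 23 and 75 after TAC. It read 4 and 6 in high-fat sham and 14839, 10 and 6 in high-fat TAC, so 1 of the 5 high-fat libraries, TAC replicate 1, held much atrial RNA. Nppa, the natriuretic peptide gene induced by cardiac load, was 4981 to 18967 in fat-free sham and 39003 to 66419 in fat-free TAC, and it was 505 to 1220 in high-fat sham and 33860 to 402581 in high-fat TAC. Nothing in the labels says whether libraries of a group came from separate animals, and p-values measure only the spread between these libraries.

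The 4 genes code for proteins of unlike function. Inmt encodes indolethylamine N-methyltransferase, which moves a methyl group from S-adenosylmethionine to tryptamine and related amines and to thioethers. Ces1d encodes a carboxylesterase of the endoplasmic reticulum, also described as a triacylglycerol hydrolase, which cleaves ester bonds in lipids and drugs. Amy1 encodes the salivary type of alpha-amylase, the secreted enzyme that cleaves starch and glycogen inside the chain. Lgals4 encodes galectin-4, a lectin with a pair of carbohydrate-binding domains that binds beta-galactosides and is best known from the intestinal epithelium. The adult heart draws most of its energy from fatty acids, and a pressure-overloaded heart is known for a lower expression of genes of fatty acid use and a return of fetal genes.

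In mm10 coordinates of the deposited tables, Inmt (gene ID 21743) lies on the minus strand at chr6:55170627-55174990, with 3 exon intervals and 1023 counted bases. Ces1d (gene ID 104158) lies on the minus strand at chr8:93166072-93197804, with 14 exon intervals and 1966 counted bases. Amy1 (gene ID 11722) lies on the minus strand at chr3:113555952-113577750, with 12 exon intervals and 1822 counted bases. Lgals4 (gene ID 16855) lies on the plus strand at chr7:28833794-28841703, with 10 exon intervals and 1439 counted bases. In the annotation of the same build, only Ces1d overlaps another gene, the unclassified transcript Gm45909 on the same strand. Whether that transcript overlaps the counted bases of Ces1d was not checked, so its reads may be among those counted for Ces1d.

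Promoter sequence is shown because the 4 genes were low in the same group of hearts, and a reader may want to see what their starts hold. RefSeq promoter windows (GRCm38.p6, the mm10 build) were matched for 3 of the 4 genes. Ces1d was not matched. Each run is the 250 bases before a transcript start, 5′ to 3′ on the gene's strand, and capitals mark the matches to the motifs searched. The windows are chr6:55174991-55175240 (minus) for Inmt, chr3:113577751-113578000 and chr3:113574763-113575012 (minus) for Amy1 starts 1 and 2, and chr7:28833544-28833793 (plus) for Lgals4.
Inmt: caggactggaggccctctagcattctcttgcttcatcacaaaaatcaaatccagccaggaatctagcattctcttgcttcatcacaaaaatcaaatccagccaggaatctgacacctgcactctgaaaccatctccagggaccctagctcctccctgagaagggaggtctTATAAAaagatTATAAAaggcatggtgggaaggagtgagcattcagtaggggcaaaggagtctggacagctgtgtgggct
Amy1 start 1: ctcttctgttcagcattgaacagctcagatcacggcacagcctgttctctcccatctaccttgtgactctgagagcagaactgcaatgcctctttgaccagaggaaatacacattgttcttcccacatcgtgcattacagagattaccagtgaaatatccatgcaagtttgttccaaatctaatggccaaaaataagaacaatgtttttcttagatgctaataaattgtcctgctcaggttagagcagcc
Amy1 start 2: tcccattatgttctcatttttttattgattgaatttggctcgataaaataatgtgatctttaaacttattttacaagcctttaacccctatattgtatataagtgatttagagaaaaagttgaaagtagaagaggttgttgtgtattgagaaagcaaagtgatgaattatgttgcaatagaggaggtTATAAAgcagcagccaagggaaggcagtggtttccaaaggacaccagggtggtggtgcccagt
Lgals4: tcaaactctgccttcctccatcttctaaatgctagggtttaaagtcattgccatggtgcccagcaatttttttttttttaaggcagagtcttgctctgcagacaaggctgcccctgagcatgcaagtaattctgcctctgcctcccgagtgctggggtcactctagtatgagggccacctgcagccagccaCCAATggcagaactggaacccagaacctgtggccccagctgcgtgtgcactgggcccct

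The windows shared no pattern of matches. The motifs were searched on both strands: the TATA box TATAAA, the nuclear receptor half-site AGGTCA, the longer site TCAAGGTCA that contains it, the GATA site AGATAA, the E-box CACGTG, the CCAAT box CCAAT and the MEF2 core TATTTTTA. Inmt held TATAAA at 80 and at 69 bases before its start. Amy1 start 2 held it at 63 bases, and 12.4% of the 32851 windows of the table hold it. Lgals4 held CCAAT at 59 bases, as 33.9% of windows do. Amy1 start 1 held none of the motifs. The receptor half-site (14.0% of windows), the longer site (0.387%), the GATA site (9.99%), the E-box (6.02%) and the MEF2 core (2.45%) were in none of the 4 windows. The Inmt window also carries an exact 49-base repeat, with copies that start 46 bases apart and so overlap. A repeat of at least that length is in 105 of the 32851 windows (0.320%).

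Of the 4 genes, Inmt had the lowest share of its sham level left after TAC. In fat-free sham hearts its normalized counts were 822, 668 and 654 in replicates 1 to 3, and in fat-free TAC hearts they were 160, 17 and 84. In high-fat sham hearts they were 288 and 590 in replicates 2 and 3, and in high-fat TAC hearts 36, 124 and 13. Every TAC library was below every sham library of its diet, with the lowest sham 4.09 times the highest TAC value on fat-free and 2.32 times on high-fat feed. Group means were 715 ± 93.2 (SD, n = 3) and 87 ± 71.5 (SD, n = 3) on the fat-free diet, where TAC left 12.2% of the sham mean. They were 439 ± 214 (SD, n = 2) and 57.7 ± 58.6 (SD, n = 3) on the high-fat diet, where TAC left 13.1%. The log2 fold change was -3.51 ± 0.68 (SE) and -3.36 ± 0.91 (SE). Within the TAC groups Inmt differed the most of the 4 genes, with the highest library 9.41 times the lowest on fat-free and 9.54 times on high-fat feed. Without fat-free TAC replicate 2 its log2 fold change was -2.61, and without high-fat TAC replicate 3 it was -2.60. At the other end, it was -4.19 without fat-free TAC replicate 1 and -4.18 without high-fat TAC replicate 2.

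Ces1d was the most abundant of the 4, also per kilobase. Its normalized counts were 5362, 4875 and 5063 in fat-free sham hearts and 1295, 1037 and 2526 in fat-free TAC hearts. They were 7351 and 6556 in high-fat sham hearts and 332, 2058 and 829 in high-fat TAC hearts. The sham libraries lay close together, with a coefficient of variation of 4.82% and 8.08%, and the TAC libraries far apart, with 49.1% and 82.8%. No TAC library reached a sham library of its diet. The means were 5100 ± 246 and 1619 ± 796 (SD, n = 3 each) on the fat-free diet, which left 31.8%. They were 6953.5 ± 562 (SD, n = 2) and 1073 ± 888 (SD, n = 3) on the high-fat diet, which left 15.4%. The log2 fold change was -1.76 ± 0.28 and -3.07 ± 0.71 (SE). High-fat TAC replicate 1, the library with much atrial RNA, had the lowest Ces1d count. Without it the log2 fold change on that diet was -2.41.

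Amy1 had the lowest counts in sham hearts per kilobase of counted bases. Its normalized counts were 356, 332 and 326 in fat-free sham hearts and 118, 101 and 177 in fat-free TAC hearts. They were 605 and 651 in high-fat sham hearts and 67, 185 and 166 in high-fat TAC hearts. The groups of each diet did not overlap, and the coefficient of variation of the sham libraries was 4.70% on fat-free and 5.18% on high-fat feed. The means were 338 ± 15.9 and 132 ± 39.9 (SD, n = 3 each), which left 39.1%, and 628 ± 32.5 (SD, n = 2) and 139 ± 63.4 (SD, n = 3), which left 22.2%. The log2 fold change was -1.39 ± 0.21 on the fat-free and -2.29 ± 0.44 (SE) on the high-fat diet. Of the 50-base words of the annotated Amy1 transcripts, 2.69% also occur in the pancreatic amylase genes Amy2b and Amy2a1 to Amy2a5. All 6 of these were at 0 in every library.

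Lgals4 was 748, 500 and 639 normalized counts in fat-free sham hearts and 207, 113 and 211 in fat-free TAC hearts. It was 1645 and 1550 in high-fat sham hearts and 154, 399 and 178 in high-fat TAC hearts. TAC and sham did not overlap on either diet, and the lowest sham library was 2.37 times the highest TAC library on fat-free and 3.88 times on high-fat feed. The means were 629 ± 124 and 177 ± 55.5 (SD, n = 3 each), which left 28.1%, and 1597.5 ± 67.2 (SD, n = 2) and 244 ± 135 (SD, n = 3), which left 15.3%. The log2 fold change was -1.86 ± 0.26 and -2.84 ± 0.41 (SE). In the authors' deposited table for the high-fat diet, the shrunken log2 fold change of Lgals4 was -2.52, the lowest of 19691 genes with a value. The other 3 genes ranked 17 (Ces1d, -1.9), 11 (Amy1, -1.96) and 36 (Inmt, -1.67) in the authors' deposited table for that diet. The authors' deposited table for the fat-free diet placed Lgals4 at 14 of 19470, Ces1d at 26, Inmt at 39 and Amy1 at 51.

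**Figure D1:**
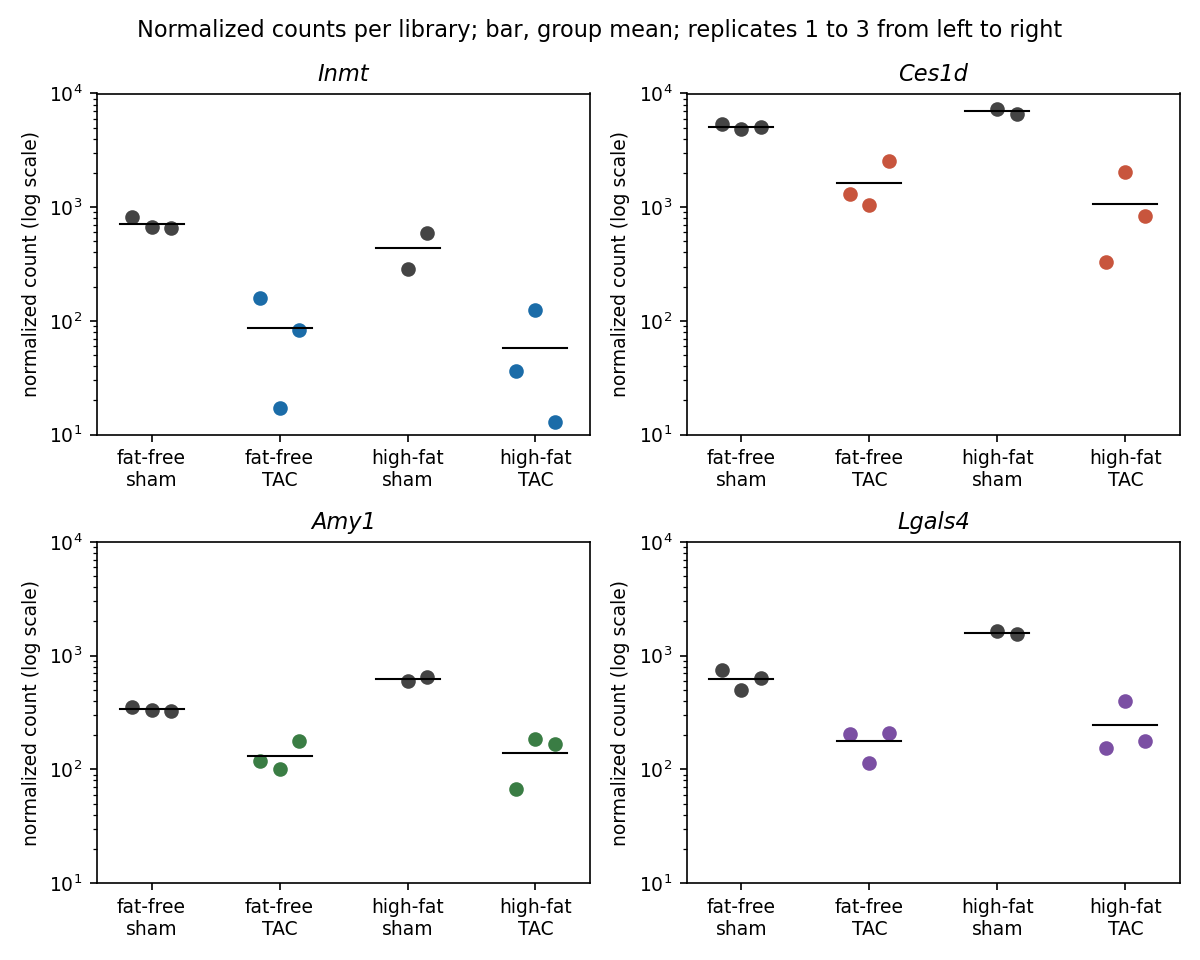
Normalized counts of Inmt, Ces1d, Amy1 and Lgals4 on a log axis in the 11 libraries, by diet and surgery (sham in grey, TAC in colour; bar, group mean). On each diet every TAC point lies below every sham point, and the TAC points spread more than the sham points, most of all for Inmt.

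All 4 genes were past the threshold on both diets, an adjusted p under 0.1 in limma, the test fitted across all genes. TAC was lower with that call in 10.0% of 13995 genes tested with fat-free feeding (24.2% in either direction) and in 14.8% of 14274 with high-fat feeding (31.7% in either direction). Groups did not overlap, with TAC lower, in 17.6% and 33.1% of genes, and in 37.3% and 63.7% in either direction. Since these values chose the 4 genes, nothing is read from their calls. Ordered by log2 fold change among all genes tested, Inmt was at place 16 from the lowest on fat-free and 3 on high-fat feed. Lgals4 was at 86 and 15, Ces1d at 95 and 8, and Amy1 at 157 and 35. Bulk RNA cannot tell fewer cells of a type from less RNA in each cell, and this holds for every value here.

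**Figure D2:**
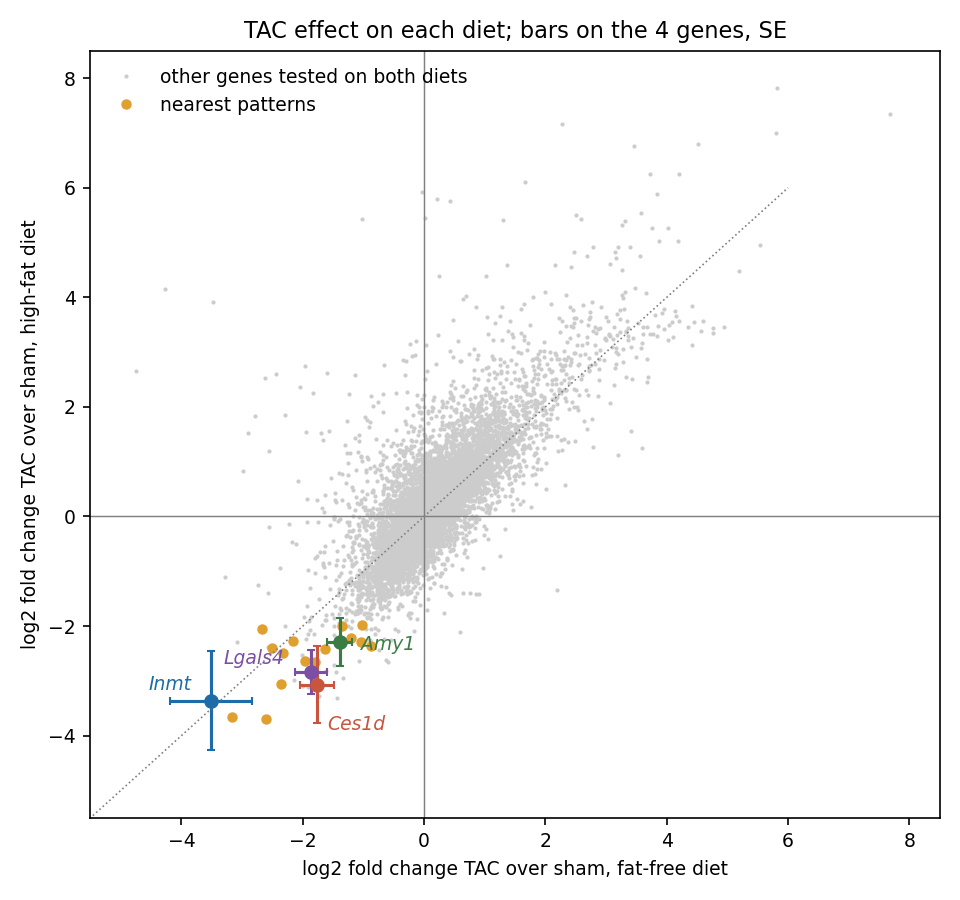
Log2 fold change of TAC over sham on the fat-free (x) and high-fat diet (y) for the 13861 genes tested on both, with the 4 genes in colour (bars, SE), the genes of nearest pattern in orange and the dotted line at equal change. The 4 genes sit at the lower left, with Ces1d, Amy1 and Lgals4 below the line and Inmt on it.

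The TAC effect differed between the diets by less than its SE for Inmt and by more than its SE for the others. High-fat minus fat-free, the log2 fold change differed by 0.14 ± 1.26 for Inmt, -1.31 ± 0.80 for Ces1d, -0.90 ± 0.50 for Amy1 and -0.98 ± 0.52 for Lgals4 (SE, fit over 11 libraries). No gene of 14729 passed an adjusted p under 0.1 for that difference in limma (0%). The smallest adjusted p was 0.784, and 679 genes had an unadjusted p under 0.05. No difference of the TAC effect between diets was detected for any gene with this number of libraries.

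Each diet was normalized apart from the other, so levels are set across them in CPM, the count scaled to the library total, and were not tested. In sham hearts Lgals4 was at 19.7 CPM on fat-free and 40.7 on high-fat feed, a ratio of 2.07, and Amy1 at 10.5 and 16.0, a ratio of 1.52. Inmt was at 22.3 and 11.2, a ratio of 0.505. The sham libraries of the diets did not overlap for these 3 genes. Of 13861 genes tested on both diets, 6.87% had all high-fat sham libraries above the fat-free ones in CPM, as Lgals4 and Amy1 did, and 37.7% had all of them below, as Inmt did. Ces1d was at 159 and 177 CPM with overlapping libraries. In TAC hearts the libraries of the diets overlapped for all 4 genes (of all genes, 13.7% did not overlap with high-fat higher and 6.86% with high-fat lower), at 3.03 and 1.92 CPM for Inmt, 54.8 and 35.0 for Ces1d, 4.49 and 4.60 for Amy1, and 6.07 and 8.12 for Lgals4. The high-fat to fat-free ratio of the TAC means was 0.633 for Inmt, 0.638 for Ces1d, 1.02 for Amy1 and 1.34 for Lgals4.

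Per kilobase of counted bases, Ces1d was the highest of the 4 in every group and Amy1 the lowest in fat-free hearts and in high-fat sham hearts. Fat-free sham means per kilobase were 2594 ± 125 normalized counts for Ces1d, 699 ± 91.1 for Inmt, 437 ± 86.4 for Lgals4 and 186 ± 8.71 for Amy1 (SD, n = 3), each apart from its neighbour by more than the SD. High-fat sham means were 3537 ± 286, 429 ± 209, 1110 ± 46.7 and 345 ± 17.9 in the same gene order (SD, n = 2), so Lgals4 stood above Inmt there, and Inmt and Amy1 were within the SD of Inmt. In fat-free TAC hearts the means were 824 ± 405, 85.0 ± 69.9, 123 ± 38.5 and 72.4 ± 21.9 (SD, n = 3). In high-fat TAC hearts they were 546 ± 452, 56.4 ± 57.3, 169 ± 93.9 and 76.5 ± 34.8 (SD, n = 3). After TAC the SDs of Inmt, Lgals4 and Amy1 reached into each other's range on the fat-free diet.

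The 4 genes varied together across libraries only in part. In fat-free TAC replicate 2 all 4 were at their lowest of the group, and in high-fat TAC replicate 2 all 4 were at their highest. In normalized counts, Ces1d, Amy1 and Lgals4 were lowest in high-fat TAC replicate 1 and highest in fat-free TAC replicate 3. Inmt was lowest in high-fat TAC replicate 3 and highest in fat-free TAC replicate 1. The order of Lgals4 depended on the scaling. In CPM it was 5.94 and 5.74 in high-fat TAC replicates 1 and 3, and 7.46 and 6.84 in fat-free TAC replicates 1 and 3. Likeness was measured as the root mean square difference over the 11 libraries of log2(value + 1), each centred on the sham mean of its diet. It was 0.391 between Ces1d and Lgals4, 0.494 between Amy1 and Lgals4 and 0.547 between Ces1d and Amy1. Inmt was farther off, at 1.15 from Lgals4, 1.29 from Ces1d and 1.57 from Amy1. A gene is nearer to another partly because both are low in the same groups, which is how the 4 were chosen.

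**Figure D3:**
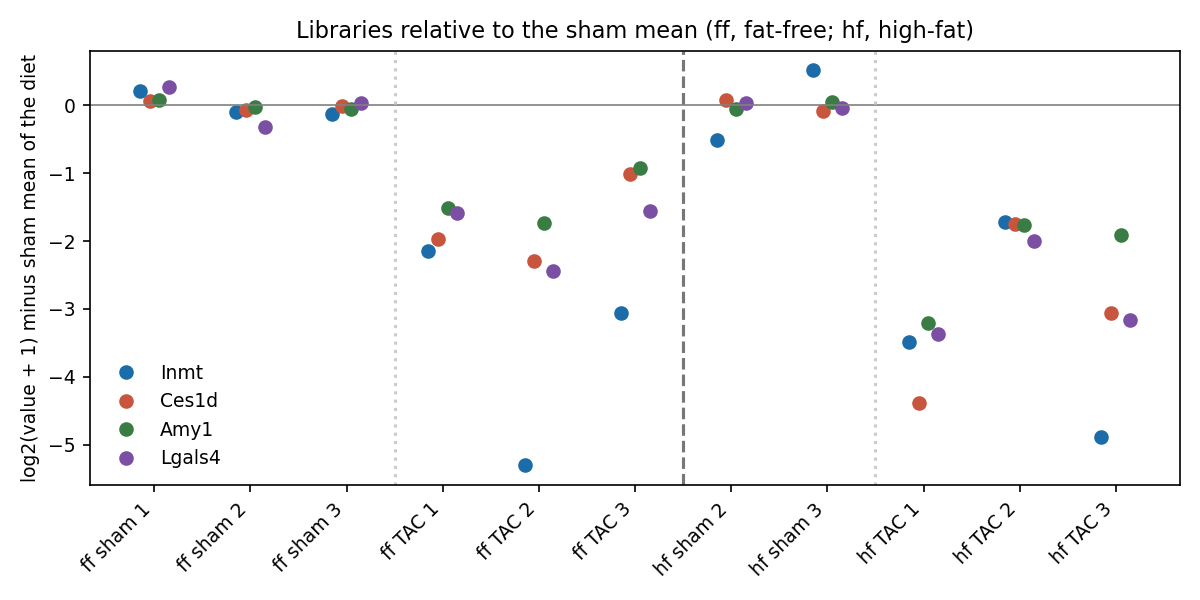
Log2(value + 1) of the 4 genes in each of the 11 libraries minus the sham mean of the diet (dashed line, boundary of the diets). Ces1d, Amy1 and Lgals4 stay close together in fat-free libraries, and Inmt lies well below them in fat-free TAC replicate 2 and in high-fat TAC replicate 3.

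Among 11974 genes with a mean of at least 50 normalized counts, the 5 nearest to each gene were found by the same measure, as a description. Among the nearest to Inmt were Penk (proenkephalin), Kcnv2 (a potassium channel subunit), Gm10635 and Retnla (resistin-like alpha), at 0.872 to 1.03. Kcnv2 went from 408 ± 82.5 to 73.7 ± 41.0 normalized counts on the fat-free diet (SD, n = 3 each). The nearest to Ces1d were A530016L24Rik, Uckl1os, Lgals4, Gm10635 and Gabrr2 (a GABA receptor subunit), at 0.267 to 0.440. The nearest to Amy1 were Gm12167, Ctla4 (an inhibitory T cell receptor), Ech1 (an enoyl-CoA isomerase of fatty acid oxidation), A930018M24Rik and Scn4b (a sodium channel subunit), at 0.185 to 0.315. The nearest to Lgals4 were Gabrr2, Gm10635, Ces1d, Acot1 (an acyl-CoA thioesterase) and Gm19522, at 0.247 to 0.441. Gm10635 was thus among the 5 nearest of 3 of the 4 genes, and it went from 232 ± 85.2 to 44 ± 12.5 on the fat-free diet (SD, n = 3 each) and from 246.5 ± 29.0 (SD, n = 2) to 35.3 ± 28.6 (SD, n = 3) on the high-fat diet. Acot1 went from 507 ± 146 to 102 ± 36.4 and from 1454 ± 412 to 320 ± 259. Scn4b went from 1348 ± 144 to 751 ± 205 on the fat-free diet and from 4152.5 ± 41.7 to 911 ± 469 on the high-fat diet.

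Some neighbours on the chromosome were lower after TAC and others were not. Of all genes tested, 10.0% fell and 14.2% rose on the fat-free diet, and 14.8% fell and 16.9% rose on the high-fat diet. Within 250 kb, 6 neighbours of Inmt were tested on both diets, of which 2 fell on fat-free and 4 on high-fat feed and none rose. Crhr2, a receptor for corticotropin-releasing hormone and urocortins, 37.7 kb from Inmt, fell by 0.58 on the log2 scale on the fat-free diet (limma adjusted p = 0.0286) and by 0.92 on the high-fat diet (adjusted p = 0.0381). Aqp1, a water channel of the endothelium, had a log2 fold change of -0.48 on the fat-free diet (adjusted p = 0.11) and fell by 1.20 on the high-fat diet (adjusted p = 0.0288). Rnpc3, the tested neighbour of Amy1, had a log2 fold change of -0.32 on the fat-free diet (adjusted p = 0.184) and fell by 0.47 on the high-fat diet (adjusted p = 0.0538), a call lost under scaling to library size. Both tested neighbours of Ces1d passed. Lpcat2, a lysophosphatidylcholine acyltransferase, rose by 1.41 (adjusted p = 0.0353) and 1.31 (adjusted p = 0.0547) on the log2 scale. Ces1e fell, but it met the filter only through the sham libraries, so its direction was fixed in advance. Of the 13 tested neighbours of Lgals4, 1 fell and 3 rose on the fat-free diet, and 5 fell and 3 rose on the high-fat diet. Under scaling to library size alone the high-fat calls of Nfkbib, Sars2 and Mrps12, 3 of these 5 falls, and of Nod1, a neighbour of Inmt, were lost. Rinl, near Lgals4, and Fam188b and Gars, near Inmt, then gained high-fat calls as rises.

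The closest neighbour of any of the 4 genes was Ech1, which ends 1.56 kb upstream of Lgals4 on the same strand. Ech1 went from 45705 ± 2161 to 22786 ± 4900 normalized counts on the fat-free diet (SD, n = 3 each; log2 fold change -1.02, limma adjusted p = 0.00853). It went from 87380 ± 7396 (SD, n = 2) to 24946 ± 14037 (SD, n = 3) on the high-fat diet (log2 fold change -1.99, adjusted p = 0.0616). Lgals4 counts were 1.38% ± 0.29 of the Ech1 counts in fat-free sham and 0.788% ± 0.27 in fat-free TAC hearts (SD, n = 3 each). They were 1.83% ± 0.08 in high-fat sham (SD, n = 2) and 1.04% ± 0.33 in high-fat TAC hearts (SD, n = 3). These are shares of counted reads, not of levels per length. Lgals4 reads were few beside those of its neighbour in every group, and whether reads past the end of Ech1 contributed to it was not tested. The next gene upstream on the same strand, Hnrnpl, had log2 fold changes of -0.17 and -0.13 and was not past the threshold (adjusted p = 0.282 and 0.345).

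**Figure D4:**
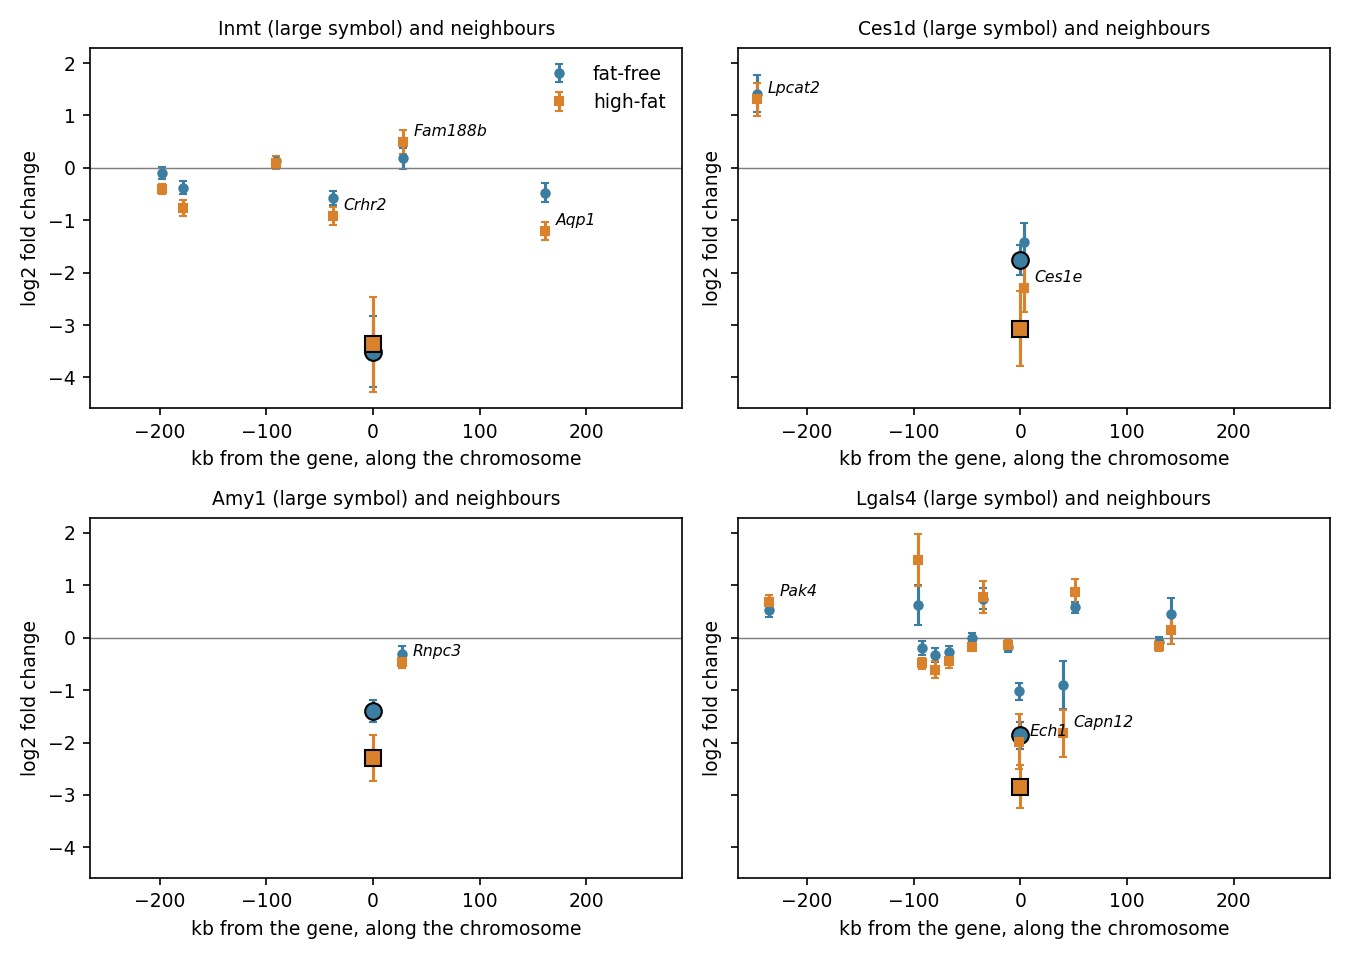
Log2 fold change of TAC over sham (bars, SE) of the 4 genes (large symbols) and of their neighbours tested on both diets, by distance in kb along the chromosome. Ech1 beside Lgals4 and Ces1e beside Ces1d lie well below 0, and most other neighbours lie between -1 and 1.

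Ces1d held most of the carboxylesterase counts of the heart. Among its neighbours in the Ces1 cluster, Ces1a, Ces1b, Ces1c, Ces1f, Ces1g and Ces1h reached no more than 12 normalized counts in any library. Ces1e, 3.41 kb away, fell from 26.7 ± 2.1 to 9.67 ± 3.1 on the fat-free diet (SD, n = 3 each; log2 fold change -1.41 ± 0.35 SE, limma adjusted p = 0.0341). It fell from 32 ± 4.2 (SD, n = 2) to 6 ± 2.6 (SD, n = 3) on the high-fat diet (log2 fold change -2.30 ± 0.46 SE, adjusted p = 0.0431). Ces1e reads were 0.464% to 0.809% of Ces1d reads by group mean. They were few, at 9, 7 and 13 in fat-free TAC and 5, 9 and 4 in high-fat TAC libraries. On both diets Ces1e met the filter only through the sham libraries, so its direction was fixed in advance. Of the 50-base words of the annotated Ces1d transcripts, 1.28% occur in other genes (Ces1b, Ces1g and Ces1f) and none of them in Ces1e. Without fat-free TAC replicate 2 the fat-free call of Ces1e was lost. Ces2e, an intestinal-type carboxylesterase, rose from 45 ± 12 to 94.7 ± 9.5 on the fat-free diet (log2 fold change 1.09, adjusted p = 0.0262) and had a log2 fold change of 0.87 on the high-fat diet (adjusted p = 0.112). Of 19 carboxylesterases other than Ces1d, 3 were tested on each diet, of which 1 rose, 1 fell and 1 was not past the threshold on the fat-free diet, and 1 fell and 2 were not past it on the high-fat diet. Of all genes tested, 14.2% rose and 10.0% fell on the former diet, and 16.9% rose and 14.8% fell on the latter.

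The galectins other than Lgals4 that passed the test rose. Of 12 listed, a list that includes the galectin-binding Lgals3bp, 6 were tested. On each diet 4 rose, Lgals3bp among them, none fell and 2 were not past the threshold. Across all genes tested, 14.2% rose and 10.0% fell on the fat-free diet, and 16.9% rose and 14.8% fell on the high-fat diet. The median log2 fold change was 0.95 and 0.89, against -0.02 and -0.01 for all genes. Without the filter, 1 gene of the list fell on the fat-free diet. Lgals3, a galectin of macrophages, rose from 102 ± 25.7 to 553 ± 410 on the fat-free diet (log2 fold change 2.20, adjusted p = 0.0221). It rose from 85.5 ± 26.2 to 780 ± 648 on the high-fat diet (log2 fold change 2.88, adjusted p = 0.0525). Lgals3bp, a secreted galectin-binding glycoprotein, rose by 1.56 (adjusted p = 0.0021) and 1.45 (adjusted p = 0.0287) on the log2 scale, Lgals9 by 1.22 (adjusted p = 0.00371) and 1.07 (adjusted p = 0.0516), and Lgals1 by 0.68 (adjusted p = 0.00739) and 0.70 (adjusted p = 0.0949). Lgals8 had log2 fold changes of -0.07 and 0.02 and Lgalsl of 0.17 and 0.25, and neither was past the threshold. Beside these, 9 macrophage markers summed to 9223 to 11241 in fat-free sham and 15377 to 23869 in fat-free TAC libraries, and to 7276 to 9512 and 12455 to 20075 on the high-fat diet. Their part in the galectin rise was not tested. On the fat-free diet, 4 or 5 genes of this list rose whichever library was left out. On the high-fat diet none rose without sham replicate 2 or without sham replicate 3, and 1 rose without TAC replicate 3.

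Among small-molecule methyltransferases and their methyl supply, 20 of 31 listed genes other than Inmt were tested. On the fat-free diet 2 rose and 5 fell, and on the high-fat diet 2 rose and 7 fell. Among all genes tested, 14.2% rose and 10.0% fell on the former diet, and 16.9% rose and 14.8% fell on the latter. Leaving out single fat-free libraries gave 4 to 7 falls and 1 or 2 rises, with 1 rise when sham replicate 1 or TAC replicate 1 or 2 was omitted. Nnmt, the nicotinamide N-methyltransferase, of the same enzyme family as Inmt, rose from 68 ± 13.2 to 185 ± 28.9 (log2 fold change 1.44, adjusted p = 0.00766) and from 88.5 ± 10.6 to 256 ± 118 (log2 fold change 1.41, adjusted p = 0.073). Hnmt, which methylates histamine, fell from 386 ± 39.5 to 164 ± 57.3 (log2 fold change -1.28, adjusted p = 0.0134) and from 466.5 ± 7.8 to 212 ± 89.9 (log2 fold change -1.21, adjusted p = 0.0629). As3mt, an arsenite methyltransferase, fell by 0.67 (adjusted p = 0.019) and 1.06 (adjusted p = 0.0634) on the log2 scale. Under scaling to library size alone the high-fat list held 4 rises and 3 falls.

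**Figure D5:**
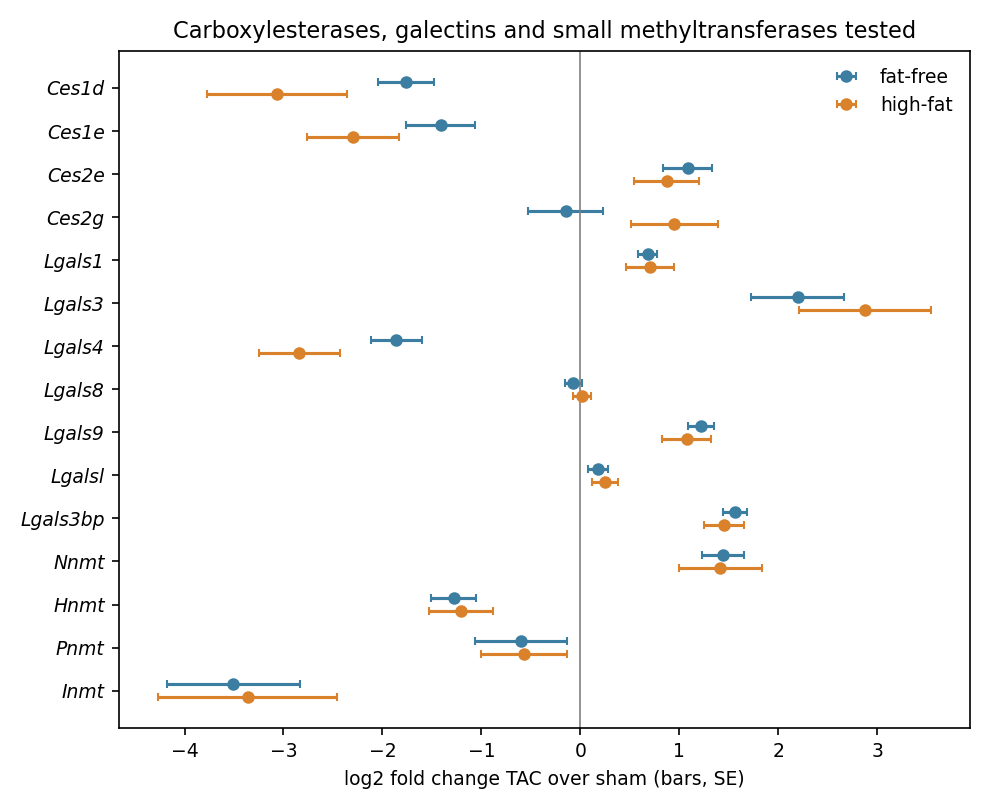
Log2 fold change of TAC over sham (points, bars SE) for the carboxylesterases, galectins and small-molecule methyltransferases tested on both diets. Lgals4 lies apart on the negative side while Lgals1, Lgals3, Lgals9 and the galectin-binding Lgals3bp lie on the positive side. Nnmt is positive where Inmt and Hnmt are negative.

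Genes of indole and amine metabolism, the pathway of Inmt substrates, were in part lower. Of 18 listed genes other than Inmt, 9 were tested on the fat-free diet, where 4 fell and 5 were not past the threshold. On the high-fat diet 10 were tested, of which 4 fell and 6 were not past it. Falls were 10.0% and rises 14.2% of all genes tested on the former diet, and 14.8% and 16.9% on the latter. Under scaling to library size alone the high-fat list held 2 rises and 3 falls, and Kyat1 lost its call there. Maob, the monoamine oxidase that degrades phenethylamine and dopamine, fell from 2675 ± 377 to 1337 ± 227 on the fat-free diet (adjusted p = 0.00776) and from 2815.5 ± 134 to 1428 ± 393 on the high-fat diet (log2 fold change -1.01, adjusted p = 0.0499). Kyat3, a kynurenine aminotransferase, fell by 0.72 (adjusted p = 0.0335) and 1.12 (adjusted p = 0.0802) on the log2 scale. Kyat1, another one, fell by 0.50 (adjusted p = 0.0247) and 0.76 (adjusted p = 0.0762). Aox1, an aldehyde oxidase, fell by 0.79 (adjusted p = 0.0488) and 0.96 (adjusted p = 0.0536). Leaving out single fat-free libraries gave 2 to 4 falls, with 2 when TAC replicate 2 was omitted.

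Neutral lipid hydrolysis, the setting of Ces1d, was mixed. Of 20 listed genes other than Ces1d, 16 were tested. Of these, 2 rose and 4 fell on the fat-free diet and 1 rose and 6 fell on the high-fat diet. The shares of all genes tested were 14.2% higher and 10.0% lower on the former diet, and 16.9% and 14.8% on the latter. Pnpla2, the adipose triglyceride lipase, fell from 10145 ± 1307 to 6842 ± 1052 (log2 fold change -0.57, adjusted p = 0.0326) and from 11655 ± 1554 to 6086 ± 1731 (log2 fold change -0.97, adjusted p = 0.0604). G0s2, which inhibits that lipase, fell by 1.23 (adjusted p = 0.0842) and 1.25 (adjusted p = 0.0469) on the log2 scale. Lipa, the lysosomal acid lipase, rose by 0.45 (adjusted p = 0.0602) and 0.63 (adjusted p = 0.0655). On the fat-free diet 1 to 5 genes of the list fell and at most 1 rose once a library was left out, with 1 fall without TAC replicate 2 and 2 without sham replicate 1. Omitting a high-fat TAC library gave 10 falls for number 1, 8 for number 2 and 0 for number 3. Under scaling to library size alone the high-fat list held 3 rises and 2 falls.

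Starch and glycogen metabolism, the setting of Amy1, held genes that moved both ways. Of 34 listed genes other than Amy1, 26 were tested. There were 3 rises and 5 falls on fat-free and 3 rises and 6 falls on high-fat feed. For all genes tested, rises were 14.2% and falls 10.0% on fat-free, and 16.9% and 14.8% on high-fat feed. Phkg1, the catalytic subunit of muscle phosphorylase kinase, fell from 1055 ± 138 to 305 ± 119 (log2 fold change -1.87, adjusted p = 0.00818) and from 1019.5 ± 110 to 322 ± 197 (log2 fold change -1.83, adjusted p = 0.0587). Mgam, an intestinal maltase-glucoamylase and 1 of the 3 fat-free rises, went from 1.67 ± 1.2 to 15.7 ± 5.0 on the fat-free diet (log2 fold change 2.68, limma adjusted p = 0.0187). It went from 4.5 to 15 on the high-fat diet (adjusted p = 0.134). These counts are few, and Mgam met the filter only through TAC libraries, so its direction was fixed in advance. Pgm1, a phosphoglucomutase, rose by 0.48 (adjusted p = 0.0649) and 0.61 (adjusted p = 0.0637) on the log2 scale. Leaving out single fat-free libraries gave 1 to 5 falls and 0 to 4 rises, with 1 fall when the library omitted was number 1 or 2 of sham or of TAC. On the high-fat diet, omitting a TAC library gave 10 falls for number 1, 12 for number 2 and 0 for number 3. Under scaling to library size alone the list turned to 6 rises and 1 fall on fat-free and 10 rises and 1 fall on high-fat feed, and Phkg1 stayed past the threshold on both.

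Among genes that handle foreign compounds, a group in which carboxylesterases are often counted, more fell than rose. Of 37 listed genes other than the 4, 33 were tested on the fat-free diet, with 3 rises and 15 falls. On the high-fat diet 31 were tested, with 2 rises and 16 falls. Rises were 14.2% and falls 10.0% of all genes tested on the former diet, and 16.9% and 14.8% on the latter. Under scaling to library size alone the high-fat split was 5 rises and 9 falls. The median log2 fold change was -0.49 and -0.64. Gstm1, a glutathione transferase, fell from 5013 ± 295 to 2471 ± 454 (log2 fold change -1.03, adjusted p = 0.00512) and from 4943 ± 147 to 1851 ± 606 (log2 fold change -1.47, adjusted p = 0.0381). Ephx2, the soluble epoxide hydrolase, fell by 0.67 (adjusted p = 0.00802) and 1.07 (adjusted p = 0.0544) on the log2 scale. Gstk1, a mitochondrial glutathione transferase, fell by 0.90 (adjusted p = 0.00828) and 1.52 (adjusted p = 0.0429). Leaving out single fat-free libraries gave 7 to 18 falls and 1 or 2 rises, with 7 falls in the absence of TAC replicate 2 or of either sham replicate 1 or 3.

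Scaling to library size alone, in place of the deposited scaling, moved the median log2 fold change of all genes from -0.02 to 0.13 on the fat-free and from -0.01 to 0.40 on the high-fat diet. The split of calls was then 2766 higher and 704 lower in place of 1983 and 1400, and 6291 higher and 558 lower in place of 2410 and 2109. On the high-fat diet no gene of 14160 passed without sham replicate 2 in limma (2047 had an unadjusted p under 0.05), 128 passed without sham replicate 3 and 154 without TAC replicate 3. On the fat-free diet no gene of 13065 passed without the 3 libraries above 1000 Myl7 counts, which are TAC replicate 1 and the sham replicates numbered 1 and 3 (2052 had an unadjusted p under 0.05). Of the fat-free calls printed above, those of Crhr2, Ces1e, Pnpla2, G0s2, Kyat3, Aox1, Lipa and Pgm1 were lost without TAC replicate 2. Lipa also lost its call without TAC replicate 1 or any sham library, Pgm1 without TAC replicate 1 or sham replicate 1 or 3, G0s2 without TAC replicate 1 or sham replicate 1, and Aox1 without sham replicate 1 or 3. With log2 Adipoq as a covariate, the fat-free calls of Crhr2, Ces1e, Ces2e, Pnpla2, G0s2, Maob, Aox1, Mgam and Pgm1 were lost.

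The 4 genes were set beside markers of other tissues that a heart sample can hold. Adipoq, the adipocyte hormone, was 153, 95 and 88 in fat-free sham and 58, 3 and 2 in fat-free TAC libraries. The 10 adipocyte markers summed to 1262 to 1960 and 439 to 974, with 7 of 8 tested lower. Across all genes tested on that diet, 10.0% were lower and 14.2% higher. Apart from Tshz2, the adipocyte markers tested met the filter only through the sham libraries, so their direction was fixed in advance. With log2 Adipoq as a covariate the fat-free log2 fold changes were -1.87 for Inmt, -2.10 for Ces1d, -1.58 for Amy1 and -1.50 for Lgals4. On the high-fat diet Adipoq was 0 and 0 in the sham libraries and 242, 0 and 1 in the TAC libraries. The counts in those sham libraries were 288 and 590 for Inmt and 7351 and 6556 for Ces1d, and in TAC replicates 1 to 3 they were 36, 124 and 13 for Inmt and 332, 2058 and 829 for Ces1d. The part of fat tissue in these values was not tested otherwise.

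Atrial RNA differed between the fat-free sham libraries. Replicate 2 held 274 Myl7 counts against 9915 and 8426 in replicates 1 and 3, while its Inmt, Ces1d and Amy1 counts were 668, 4875 and 332 and its Lgals4 count, the lowest of the group, was 500 against 748 and 639. With log2 Myl7 as a covariate the fat-free log2 fold changes were -2.41 for Inmt, -1.73 for Ces1d, -1.37 for Amy1 and -1.42 for Lgals4. The part of atrial RNA in these values was not tested otherwise. Without the 3 fat-free libraries above 1000 Myl7 counts the log2 fold changes were -4.10 for Inmt, -1.59 for Ces1d, -1.31 for Amy1 and -1.69 for Lgals4. Without high-fat TAC replicate 1 they were -3.30, -2.41, -1.83 and -2.58. The 12 resting fibroblast markers summed to 63698 to 118932 in fat-free sham and 53931 to 82373 in fat-free TAC libraries. They summed to 58272 to 69760 and 58321 to 81707 on the high-fat diet. On each diet 5 of 12 were higher and 2 of 12 lower. Shares over all genes tested were 14.2% higher and 10.0% lower on the fat-free diet, and 16.9% and 14.8% on the high-fat diet.

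The summed level of the 10 heart muscle genes was set beside the 4 genes. These 10 genes summed to 1899820 to 2148299 in fat-free sham and 1660589 to 2039358 in fat-free TAC libraries, where the groups overlapped. On that diet 2 of 10 fell, against 10.0% of all genes tested. On the high-fat diet they summed to 2261903 to 2385962 in sham and 1034479 to 1750274 in TAC libraries, without overlap. There 1 of 10 fell, against 14.8% of all genes tested. Actc1, the cardiac actin, was 291219 to 302584 in sham and 283118 to 376027 in TAC libraries of the high-fat diet. The 9 atrial markers summed to 1171 to 1968 in sham and 34814 to 501455 in TAC libraries of that diet. Nppa alone made 505 to 1220 and 33860 to 402581 of these counts. Of 8 atrial markers tested there, 2 were higher, against 16.9% of all genes tested. On the fat-free diet the 9 markers summed to 6840 to 55300 and 40164 to 67054. Normalized counts of Ces1d, Amy1 and Lgals4 were lowest in high-fat TAC replicate 1, the library with the lowest sum of the 10 heart muscle genes. In CPM, Lgals4 was lower in high-fat TAC replicate 3, at 5.74 against 5.94. The part of the heart muscle share in the values of the 4 genes was not tested.

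The other cell type lists did not all overlap between the groups. The 10 endothelial markers overlapped on both diets, at 31134 to 43455 in sham and 41455 to 45152 in TAC libraries of the fat-free diet and 50333 to 55676 and 41581 to 70353 on the high-fat diet. The 11 pericyte and smooth muscle markers summed to 22233 to 26433 and 18151 to 22090 on the fat-free diet, without overlap, and to 25570 to 26770 and 19152 to 39851 on the high-fat diet. The 5 brown adipocyte markers overlapped on the fat-free diet and were 18959 to 20081 in sham and 6586 to 13289 in TAC libraries on the high-fat diet. Most of these counts were Cox8b, at 17882 and 18915 in high-fat sham and 5571 to 12207 in high-fat TAC libraries. Ucp1, of the same list, was 0 in high-fat sham and 0 to 2 in high-fat TAC libraries.

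Defining markers of the organs in which these genes are best known were near 0. The intestinal marker list, for Lgals4, summed to 3 to 31 counts in any library. The pancreatic and salivary list, for Amy1, summed to 5 to 95, with Prss1, Prss2 and Cela3b at 0 in all 11 libraries. Alb, the hepatocyte albumin, for Ces1d, was 0 to 6, and Sftpc, the surfactant protein of the lung, for Inmt, was 0 or 1. The 9 lung markers summed to 7669 to 8762 in sham and 3201 to 6679 in TAC libraries on the fat-free diet and to 10949 to 10954 and 1745 to 5437 on the high-fat diet, and nearly all of these counts were Hopx, which heart muscle expresses too. The 9 liver markers summed to 183 to 378 and 41 to 163, and to 35 to 44 and 28 to 411. Cyp2e1 made 139 to 362 of the fat-free sham counts and 376 of those in high-fat TAC replicate 1. The pancreatic and salivary sums were higher in TAC libraries, at 24 to 36 against 8 to 14 and 37 to 95 against 5 to 17, and were mostly Cela1.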

How the data were processed

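Values were used as deposited, with a separate table for each diet. Per the submitters' processing notes, STAR, Subread, featureCounts, DESeq2 and build mm10 were used, without versions; per the labels' protocols, RNA was extracted with a Qiagen RNeasy kit and libraries came from a TruSeq Stranded mRNA kit. The per-library values are whole numbers, treated as a score: read counts that the authors appear, from the values, to have normalized within each diet and rounded before they were deposited, so no count model was fitted. The authors deposited a shrunken log2 fold change and an adjusted p-value per gene; the latter was not used. Counted length per gene is the authors' value in the deposited tables. Of 847 genes without a symbol and 27 with a symbol stored as a date, 27 symbols were restored by gene ID. Of 12 labelled libraries, 11 had a column and 0 columns were unmatched. The number of normalized counts per library sets the precision, and the sampled reads behind them are not known.

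The filter asked for a value of 10 or more in 3 fat-free libraries, or in 2 for the high-fat table and for the difference over all 11. Genes that met it were tested with limma 3.58.1 in R 4.3.3 on log2(value + 1), with a mean-variance trend, two-sided, at a Benjamini-Hochberg adjusted p under 0.1. Fold changes are on that scale, which understates those of low genes. limma's step was tested on simulated data. Diets were not tested against each other. The members, gene lists and rules were chosen with earlier results of these data known. Genes named are the 4, up to 3 called genes of smallest adjusted p per direction and diet in each list, neighbours within 250 kb tested on both diets, and the 5 genes of nearest pattern to each of the 4. Not every gene so named is printed, and 1 of the nearest genes is not reported here. Nppa, Lgals8, Lgalsl and the tissue markers other than Myl7 and Adipoq stand outside that rule and were chosen after their values were seen. Alternatives were another pseudocount (4), no filter, 2 scalings to library size, the replicate number as a block, Myl7 or Adipoq as a covariate, 1 fit of all libraries and each library left out; the Adipoq covariate and leaving out the 3 libraries with much Myl7 were chosen after seeing the data. Promoter motifs were found by exact match in RefSeq windows. Python 3.11.15, pandas 2.3.3, numpy 2.4.6 and matplotlib 3.10.9 were used, with the R package data.table (version 1.17.8).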

Additional observations from a re-analysis of the deposited data

How the results depend on the processing

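The log2 fold changes of the 4 genes kept their sign under all 15 alternatives on the fat-free and all 13 on the high-fat diet. On the fat-free diet they ran from -4.19 to -1.87 for Inmt, -2.14 to -1.49 for Ces1d, -1.62 to -1.22 for Amy1 and -2.02 to -1.42 for Lgals4. On the high-fat diet they ran from -4.18 to -2.60, -3.72 to -2.23, -2.56 to -1.74 and -3.26 to -2.42. Those that moved by more than the replicate spread were Lgals4 on the fat-free diet with log2 Myl7 as a covariate (-1.42) and Inmt there with log2 Adipoq as a covariate (-1.87), both covariates that differ between the groups. Under the Myl7 covariate the fat-free value of Inmt was -2.41, a move within its replicate spread. The cause was not tested.

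The count of genes past the threshold depended more on the libraries. On the fat-free diet it was 3383, with 1411 under the Adipoq covariate, 0 without the 3 libraries above 1000 Myl7 counts (fewer samples) and 1369 to 3821 when a single library was left out (1850 with sham replicate 1 omitted, 1930 with TAC replicate 1 omitted, and the lowest with TAC replicate 2 omitted). On the high-fat diet it was 4519, with 2814 without the filter (more genes tested), 6849 under scaling to library size alone and 0 to 5966 when a single library was left out. For the difference between diets it was 0, with 0 to 1 when a library was left out and 1 without high-fat TAC replicate 1. Of 658 counts of list genes past the threshold under the alternatives, 142 moved by over 1.5 times.

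Same-numbered sham and TAC libraries correlated, in deviations from the group means, by 0.443, 0.143 and -0.158 on the fat-free and 0.149 and -0.122 on the high-fat diet, and fat-free sham replicate 2 correlated more with TAC replicate 3 (0.337) than with its own number. The numbers were not taken as pairs. With the replicate number as a block the counts were 3322, 6102 and 0.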
